A study of Araneus ventricosus with 24 samples.

Results

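Transcripts of the silk gland of the orb-weaving spider Araneus ventricosus were compared between glands exposed to cadmium and lead together and glands exposed to cadmium alone, both for 30 days. The comparison asks how glands with added lead differ from glands with cadmium alone, and lead went together with library measures given below. It rests on 5 libraries, 2 with both metals and 3 with cadmium, chosen by the tissue and treatment in the labels. The series holds 24 deposited columns for the ampullate gland and the cerebral ganglia, each untreated or exposed to cadmium, lead or both. Of these columns 20 are distinct libraries, because the third gland column with both metals held the same count as the first in every cluster and 3 further pairs, none of them cadmium glands, were equal in the same way. Lead glands (2 libraries) and untreated glands (3 libraries) are quoted as side values. The labels give neither the metal doses nor the animals or pools behind a library, so the p-values reflect only how much libraries of a group vary, and that variation may be technical.

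Orb weavers carry several kinds of silk gland in the abdomen, and each kind makes its own large repetitive silk proteins, the spidroins. Major ampullate glands make dragline, minor ampullate glands make auxiliary threads, flagelliform glands make the core of the capture spiral, aggregate glands make its glue, aciniform glands make wrapping silk, and pyriform glands make the cement of attachment discs. Cadmium and lead are toxic metals that bind thiol groups, and animals handle them with metallothioneins, glutathione and membrane exporters.

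Reads were counted per assembled cluster of transcripts, and a cluster is named here by its closest described protein. Clusters that share a name may therefore be parts of one gene. Levels are CPM, counts scaled to library size and corrected by TMM factors, given by library. Changes are log2 ratios of both metals over cadmium ± SE from edgeR's quasi-likelihood fit of all 10 distinct gland libraries (n = 2 and 3), and an adjusted p is Benjamini-Hochberg over all 44505 clusters tested. The libraries held 16349347 and 18428698 counts with both metals, against 17074077, 20954478 and 17275416 with cadmium. Clusters that match sequence of other organisms summed to 55.5 and 919 CPM with both metals, against 346, 266 and 459.9 CPM with cadmium, with overlap. The fragment length implied by the deposited FPKM was 277 and 278 bases with both metals, against 258, 273 and 249.7 bases with cadmium, without overlap. Pseudomonas sequence summed to 0.428 and 1.95 CPM with both metals, against 31.2, 25.7 and 45.5 CPM with cadmium, again without overlap. Lead glands, at 278 and 278 bases and 4.29 and 0.493 CPM, lay near the glands with both metals in these measures, and untreated glands, at 249, 251 and 247 bases and 53.7, 29.001 and 60.6 CPM, lay on the side of the cadmium glands. Lead exposure and these measures thus split the gland libraries in the same way and cannot be told apart here. Clusters of the mitochondrial genome held 6.40 and 8.17% of counts with both metals, against 11.6, 10.9 and 12.2% with cadmium, also without overlap. The part of such differences in the gene results was not tested.

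At an adjusted p under 0.05 edgeR called none of the 44505 clusters (0.0%), and the smallest adjusted p was 0.0684. At an unadjusted p under 0.05 there were 5032 clusters, 2365 higher with both metals (5.31%) and 2667 lower (5.99%). DESeq2, a second count model run on the same counts, called 1857 of the 35170 clusters to which it gave an adjusted p, 663 higher (1.89%) and 1194 lower (3.39%). Sizes and library values are therefore given below, and edgeR's test supports no statement that a single cluster changed. In simulated counts of the same design edgeR recovered 0 of 50 clusters with a 4-fold change, 3 of 50 with a 16-fold, 15 of 50 with a 64-fold and 22 of 50 with a 256-fold change, on 39814 simulated clusters. As a plain description, both libraries with both metals lay above all 3 cadmium libraries in 7951 clusters (17.9% of those tested) and below all 3 in 10103 (22.7%). These shares are the background against which the counts for gene groups below are read. The median log2 change over all clusters tested was -0.12.

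The libraries with both metals also differed from each other. Replicate 1 lay above and replicate 2 below all cadmium libraries in 2392 clusters, and the reverse held in 1388, together 8.49% of those tested. Clusters with non-overlapping higher values had a median length of 1447 bases, those with lower values 1108, and all clusters tested 1150. Of the 112 clusters averaging at least 1000 CPM over the 5 libraries, 41 were higher without overlap and 26 lower.

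Silk transcripts differed in makeup between the groups. Dragline, glue and capture-spiral spidroins took larger shares of the counts with both metals, and wrapping and attachment silk took smaller ones. In bulk RNA, fewer cells or less tissue of one gland kind and less RNA per cell cannot be told apart. Taken as a whole, silk clusters held 13.3 and 18.8% of all counts with both metals, against 14.04, 12.9 and 12.9% with cadmium, and these groups overlapped.

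**Figure D1:**
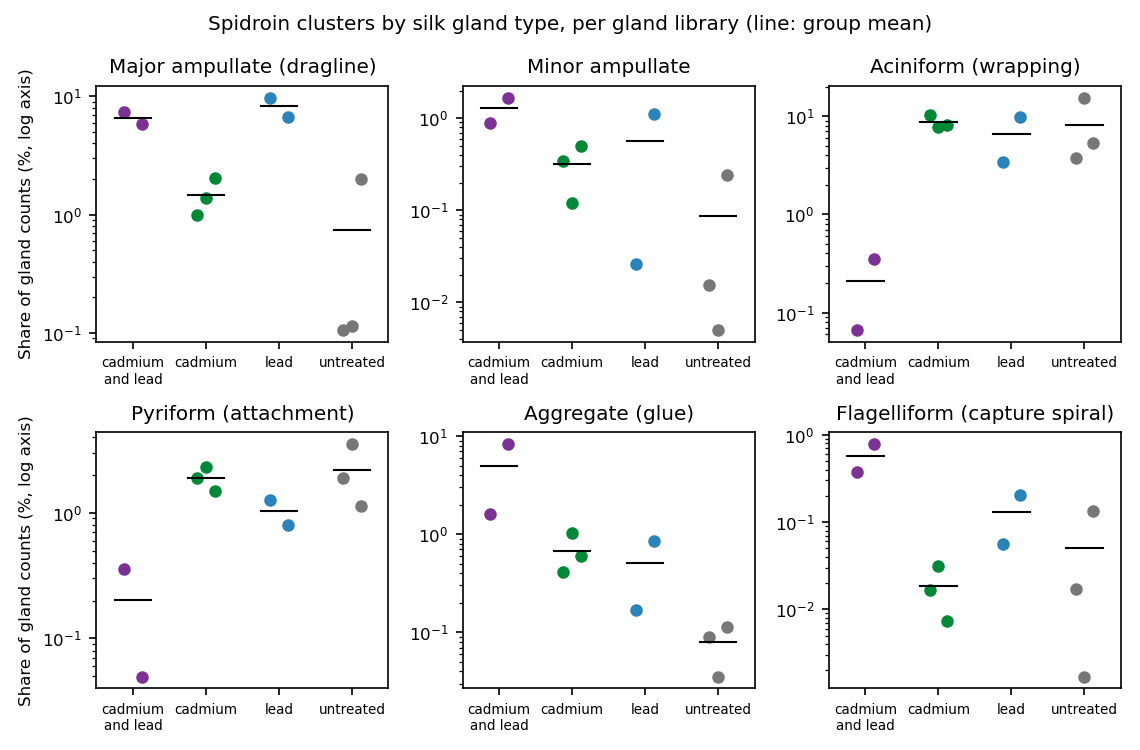
Share of all gland counts (percent, log axis) in the clusters of each spidroin type, one point per library, with groups running from both metals through cadmium and lead to untreated. Major ampullate shares were 7.35 and 5.81% with both metals against 0.995, 1.40 and 2.04% with cadmium, while aciniform shares were 0.0662 and 0.354% with both metals against 10.4, 7.84 and 8.22% with cadmium.

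Major ampullate spidroins made up 7.35 and 5.81% of counts with both metals, against 0.995, 1.40 and 2.04% with cadmium. Both glands with both metals were above every cadmium gland, and an exact two-sided permutation test over the libraries gave p = 0.1, the smallest that its 10 arrangements allow, or 0.275 adjusted by Benjamini-Hochberg over the shares of 33 lists. The same p and adjusted p hold for the shares of the minor ampullate, aggregate, flagelliform, aciniform, pyriform, muscle and respiratory lists below. Lead glands stood at 9.74 and 6.72% and untreated glands at 0.106, 0.114 and 1.99%. Of 48 clusters with this label 45 passed the filter on low counts, 33 of them were higher without overlap and none lower, and their median log2 change was 3.27. DESeq2 called 7 of the 19 with an adjusted p, all of them higher.

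Among the dragline proteins, major ampullate spidroin 1 is the glycine- and alanine-rich component, spidroin 2 the proline-containing one, and the Araneus dragline fibroins ADF-3, ADF-4 and SpA are the versions described from this genus. The families were sorted by name after the values had been seen. All 9 clusters of the spidroin 1 family passed the filter, 8 were higher without overlap, and the median log2 change was 5.25. This family was not dragline alone. Its lowest log2 change, 0.68, was that of the cluster named minor ampullate spidroin 1 variant 1. For major ampullate spidroin 2, 7 of 13 were higher and none lower (median 2.57). Clusters of the Araneus fibroins numbered 19, with 15 higher without overlap and a median of 2.32. A cluster of 501 bases matches dragline silk protein 2 (GF2) of this species. It had 2.37 and 2.70 CPM with both metals, against 0.0493, 0 and 0 CPM with cadmium. The cadmium libraries held 1 count in all, a ratio of 148 with a 95% exact interval of 25.9 to 5900.4. Major ampullate silk protein 2 had 729 and 1208 CPM with both metals, against 3.90, 37.8 and 82.4 CPM with cadmium, a log2 change of 4.55 ± 1.44 (adjusted p = 0.384). SpA, a dragline fibroin, had 9948 and 4486 CPM with both metals, against 237, 942 and 1552 CPM with cadmium, a log2 change of 2.99 ± 1.42 (adjusted p = 0.453). The groups did not overlap in any of these 3 clusters. Not every dragline cluster was higher. A far more abundant cluster named dragline silk protein-2 (F2) shares the protein name of the GF2 cluster. It had 2928 and 2533 CPM with both metals, against 2973, 551 and 5874 CPM with cadmium, and its groups overlapped.

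Some dragline sequence carried no protein name. A cluster whose nucleotide hit is a synthetic spider silk construct had 28225 and 12572 CPM with both metals, against 69.3, 87.4 and 11.1 CPM with cadmium, and another that matches spidroin 1 of Argiope trifasciata had 24197 and 1504 CPM with both metals, against 8.39, 262 and 30.8 CPM with cadmium. The values with both metals were higher without overlap in each, and both clusters were picked after their values had been seen. When any nucleotide match to a spidroin was counted, the major ampullate share became 12.9 and 8.32% with both metals, against 1.07, 1.79 and 2.42% with cadmium, over 91 clusters.

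Minor ampullate spidroins held 0.883 and 1.68% of counts with both metals, against 0.345, 0.121 and 0.496% with cadmium, again without overlap. Of 9 clusters tested, 6 were higher without overlap and none lower (median 2.31, and 4.11 without cadmium replicate 3). The best separated, minor ampullate spidroin 1 variant 4, had 676 and 858 CPM with both metals, against 53.96, 39.98 and 77.1 CPM with cadmium, a log2 change of 3.75 ± 1.26 (adjusted p = 0.397). Lead glands held 0.0260 and 1.11% and so fell on both sides of the cadmium glands.

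Aggregate spidroins, the glue proteins of the capture spiral, held 1.59 and 8.27% with both metals, against 0.413, 1.03 and 0.599% with cadmium. Every cadmium gland was below both glands with both metals, but replicate 2 held most of the excess. Of 13 clusters tested, 10 were higher without overlap and none lower (median 3.54). Aggregate spidroin 1 had 1206 and 6585 CPM with both metals, against 78.5, 129.9 and 119 CPM with cadmium, a log2 change of 5.16 ± 0.85 (adjusted p = 0.148). Its variant 1 had 221 and 1289 CPM with both metals, against 6.86, 25.4 and 20.7 CPM with cadmium, a log2 change of 5.42 ± 1.03 (adjusted p = 0.181). Mesocentin, whose closest nucleotide match is an aggregate spidroin mRNA, had 903 and 4628 CPM with both metals, against 58.9, 115 and 100.4 CPM with cadmium, a log2 change of 4.92 ± 0.83 (adjusted p = 0.148). None of these 3 overlapped between the groups. The other mesocentin cluster tested had a log2 change of -0.30, and its groups overlapped.

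Flagelliform spidroins, the stretchy core of the capture spiral, held 0.372 and 0.783% with both metals, against 0.0166, 0.0318 and 0.00732% with cadmium. Flagelliform spidroin variant 2 had 860.2 and 1260.0 CPM with both metals, against 0.937, 0.669 and 0.0687 CPM with cadmium, a log2 change of 10.85 ± 1.43 (adjusted p = 0.132). It stood at 109 and 423 CPM in lead glands and 0.563, 0.117 and 1.63 CPM in untreated glands. A cluster named flagelliform spidroin variant 1 by its protein hit has an aggregate spidroin 2 gene of Argiope trifasciata as its nucleotide hit, so its silk type is uncertain. It is counted in the flagelliform shares. It had 899 and 3234 CPM with both metals, against 11.1, 141 and 65.3 CPM with cadmium, a log2 change of 4.83 ± 1.01 (adjusted p = 0.216), and its log2 change in the ganglia was 6.06 ± 1.44. That ganglia change rests on low counts. The ganglia levels, without TMM factors, were 7.41 and 4.66 CPM with both metals, against 0.0549, 0 and 0.185 CPM with cadmium. For variant 1b the levels were 42.4 and 59.03 CPM with both metals and 0, 0.0891 and 0 CPM with cadmium, where the cadmium libraries held 2 counts in all, a ratio of 1517 with a 95% exact interval of 419 to 12536 that covers counting error only. Of 11 flagelliform clusters tested, 10 were higher without overlap and none lower (median 4.61).

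Aciniform spidroins, the proteins of wrapping silk, went the other way. They held 0.0662 and 0.354% of counts with both metals, against 10.4, 7.84 and 8.22% with cadmium, and lead glands (3.39 and 9.85%) and untreated glands (3.73, 15.5 and 5.31%) were also above both glands with both metals. All 12 clusters tested were lower without overlap (median -4.53), and DESeq2 called 6 of the 9 with an adjusted p lower. Aciniform spidroin 1 variant 1 had 28.5 and 293 CPM with both metals, against 15017, 22696 and 19169 CPM with cadmium, a log2 change of -6.88 ± 1.21 (adjusted p = 0.153). A second cluster of that name had 0.611 and 0 CPM with both metals, against 391, 423 and 476 CPM with cadmium, a log2 change of -10.53 ± 1.80 (adjusted p = 0.153). The aciniform spidroin cluster named by rank had 0.993 and 2.79 CPM with both metals, against 266, 135 and 74.7 CPM with cadmium, a log2 change of -6.38 ± 1.07 (adjusted p = 0.148). A further cluster, named SET and MYND domain-containing protein 3 by its protein hit, has an aciniform spidroin 1 gene of Araneus diadematus as its nucleotide hit. It had 23.1 and 21.2 CPM with both metals, against 5940, 2654 and 5361 CPM with cadmium, a log2 change of -7.71 ± 1.15 (adjusted p = 0.136).

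Pyriform spidroins, the cement proteins, held 0.357 and 0.0496% with both metals, against 1.89, 2.30 and 1.49% with cadmium, with no overlap. Several clusters match the pyriform spidroin gene of this species. One had 369 and 21.2 CPM with both metals, against 6640.4, 5864 and 4782 CPM with cadmium, a log2 change of -4.89 ± 1.06 (adjusted p = 0.234). The most counted had 3703 and 341 CPM with both metals, against 8870, 14470 and 11714 CPM with cadmium. Its log2 change was -2.53 ± 1.03 (adjusted p = 0.435), and that of a further cluster -3.62 ± 1.34 (adjusted p = 0.420). Of 9 pyriform clusters 5 were tested, 3 of them lower without overlap and none higher (median -2.53, and -5.16 without replicate 1 of both metals). As a share of silk counts alone, aciniform clusters made up 0.499 and 1.88% with both metals, against 73.8, 60.6 and 63.9% with cadmium, and major ampullate clusters 55.4 and 30.8% with both metals, against 7.09, 10.8 and 15.9% with cadmium. Although every library is labelled ampullate gland, the typed silk counts of the cadmium libraries were thus mainly aciniform and pyriform.

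Transcripts that serve protein synthesis and export went in both directions. In the ER and secretory list, 15 of 63 clusters tested were higher without overlap and 6 lower (median 0.06, and -0.57 without replicate 1 of both metals). Translocon-associated protein subunit alpha, part of the ER import complex, had 228 and 534 CPM with both metals, against 91.4, 103 and 119.9 CPM with cadmium, a log2 change of 1.86 ± 0.50 (adjusted p = 0.306). Prolyl 4-hydroxylase subunit alpha-1-like, which hydroxylates proline in secreted proteins, had 9.09 and 5.62 CPM with both metals, against 24.96, 16.8 and 23.97 CPM with cadmium, a log2 change of -1.57 ± 0.50 (adjusted p = 0.376). The first was higher and the second lower with both metals, each without overlap. Aminoacyl-tRNA synthetases, which load amino acids onto tRNA, had 17 of 51 higher and 6 lower without overlap (median 0.38, and 0.06 without replicate 1 of both metals). Leucine--tRNA ligase had 276 and 257 CPM with both metals, against 89.8, 90.8 and 62.2 CPM with cadmium, a log2 change of 1.72 ± 0.38 (adjusted p = 0.245). Valine--tRNA ligase had 513 and 279.6 CPM with both metals, against 142, 145 and 71.4 CPM with cadmium, a log2 change of 1.73 ± 0.47 (adjusted p = 0.320). Both ligases were higher in each gland with both metals than in any cadmium gland. Glycosylation clusters, for the enzymes that attach sugars, had 21 higher and 11 lower of 62 (median 0.16, -0.17 without replicate 1 of both metals and 0.46 without cadmium replicate 3). Beta-1,3-galactosyltransferase 5, which adds galactose to sugar chains, had the smallest p among the named genes of the list, with 7.33 and 1.31 CPM with both metals, against 50.1, 34.2 and 38.7 CPM with cadmium, a log2 change of -3.25 ± 0.78 (adjusted p = 0.271). A putative polypeptide N-acetylgalactosaminyltransferase, the enzyme kind that starts mucin-type sugar chains, had 393 and 1722 CPM with both metals, against 107, 242 and 72.95 CPM with cadmium, a log2 change of 2.91 ± 0.87 (adjusted p = 0.354). The galactosyltransferase was lower and this enzyme higher with both metals, again without overlap.

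**Figure D2:**
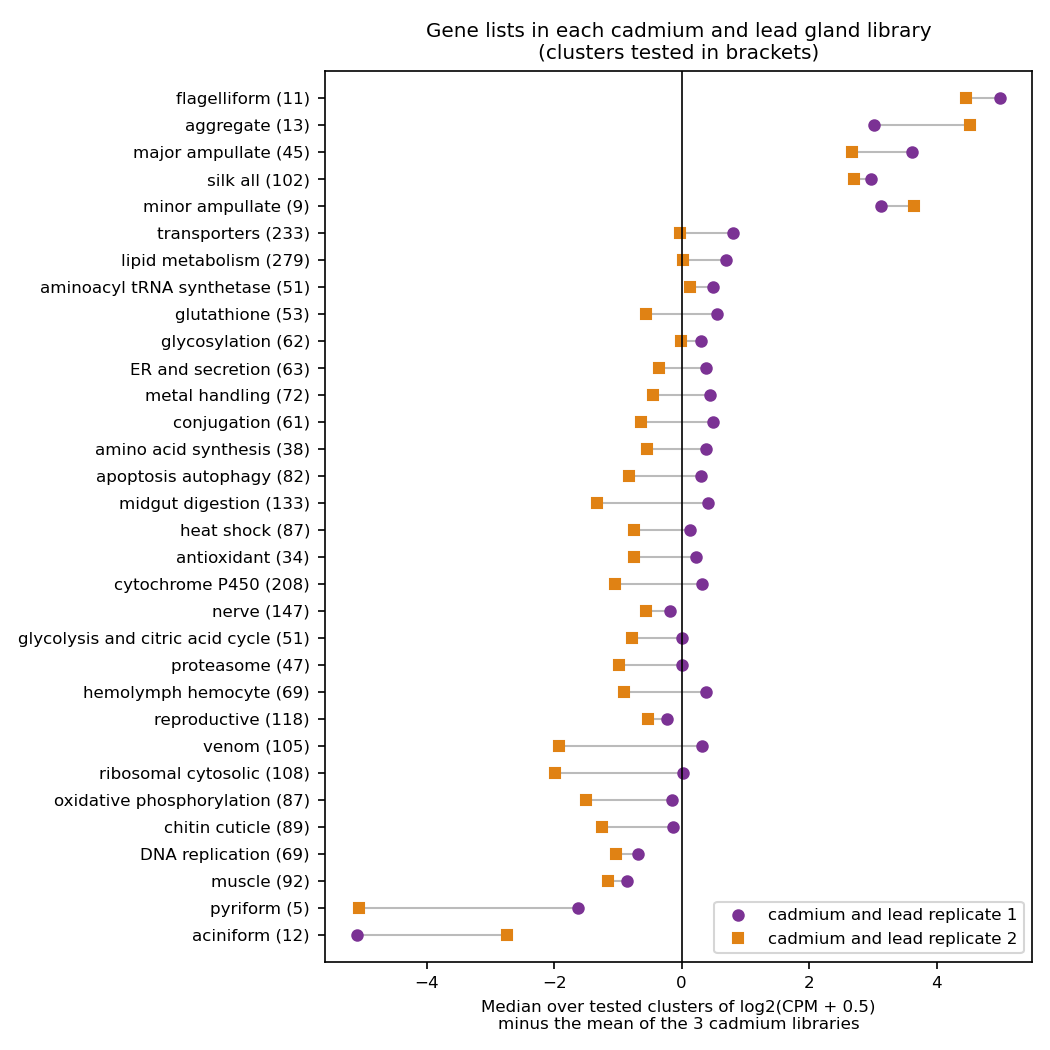
Median over the tested clusters of each gene list of log2(CPM + 0.5) minus the mean of the 3 cadmium libraries, with one point for each of the 2 libraries with both metals. Replicate 2 stood at -1.98 for ribosomal proteins and replicate 1 at 0.02, while for aciniform spidroins they stood at -2.74 and -5.10.

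Many muscle clusters were lower with both metals, among them every troponin cluster tested. Of 92 muscle clusters tested, 46 were lower without overlap and 10 higher (median -1.26). Their summed share was 0.420 and 0.468% of counts with both metals, against 0.669, 0.859 and 0.624% with cadmium. DESeq2 called 24 of the 88 with an adjusted p lower and 1 higher. Muscle is a marker of another tissue in a gland dissection, and whether its amount differed between samples was not tested. None of the muscle genes named here was at 0 in a library.

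Troponin C, the calcium sensor of the thin filament, had 1.37 and 0.959 CPM with both metals, against 37.9, 38.1 and 46.5 CPM with cadmium, a log2 change of -5.13 ± 0.61 (adjusted p = 0.0684). It had 6.76 and 9.23 CPM in lead glands and 190.1, 131 and 71.5 CPM in untreated glands. All 10 troponin clusters tested were lower without overlap (median -3.32), as were 4 of 4 for paramyosin, the core of invertebrate thick filaments. Myosin light chain had 2.22 and 1.22 CPM with both metals, against 36.6, 26.03 and 45.3 CPM with cadmium, a log2 change of -4.39 ± 0.63 (adjusted p = 0.132). Myosin regulatory light chain 2 had 7.26 and 1.53 CPM with both metals, against 104, 170.0 and 181 CPM with cadmium, a log2 change of -5.11 ± 0.79 (adjusted p = 0.136). The muscle myosin heavy chain motor had 6.26 and 3.75 CPM with both metals, against 83.2, 116 and 180.3 CPM with cadmium, a log2 change of -4.66 ± 0.72 (adjusted p = 0.136). These 4 genes, and Actin-3 with 0.764 and 0.174 CPM with both metals against 26.1, 31.4 and 26.5 CPM with cadmium, were separated between the groups.

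Other muscle families were less uniform. Titin and twitchin clusters, the elastic giants of the sarcomere, had 8 of 24 lower and 3 higher without overlap (median -0.40). Tropomyosin, which runs along the actin filament, had 4 of 7 clusters lower and 1 higher (median -3.83), and its summed share of 0.0385 and 0.0229% with both metals overlapped with 0.0316, 0.0435 and 0.0342% with cadmium. Myosin light chains, the pair above included, had 3 of 7 lower and 1 higher, with a median of 0.27. Over all myosin heavy chain clusters the numbers were 3 higher and 3 lower of 13 (median 0.62), although their summed share was lower, at 0.0250 and 0.0245% with both metals against 0.0394, 0.0413 and 0.0397% with cadmium. Actin-5C, the cytoplasmic actin, had 1297 and 348 CPM with both metals, against 639, 912 and 1477 CPM with cadmium, with overlap.

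**Figure D3:**
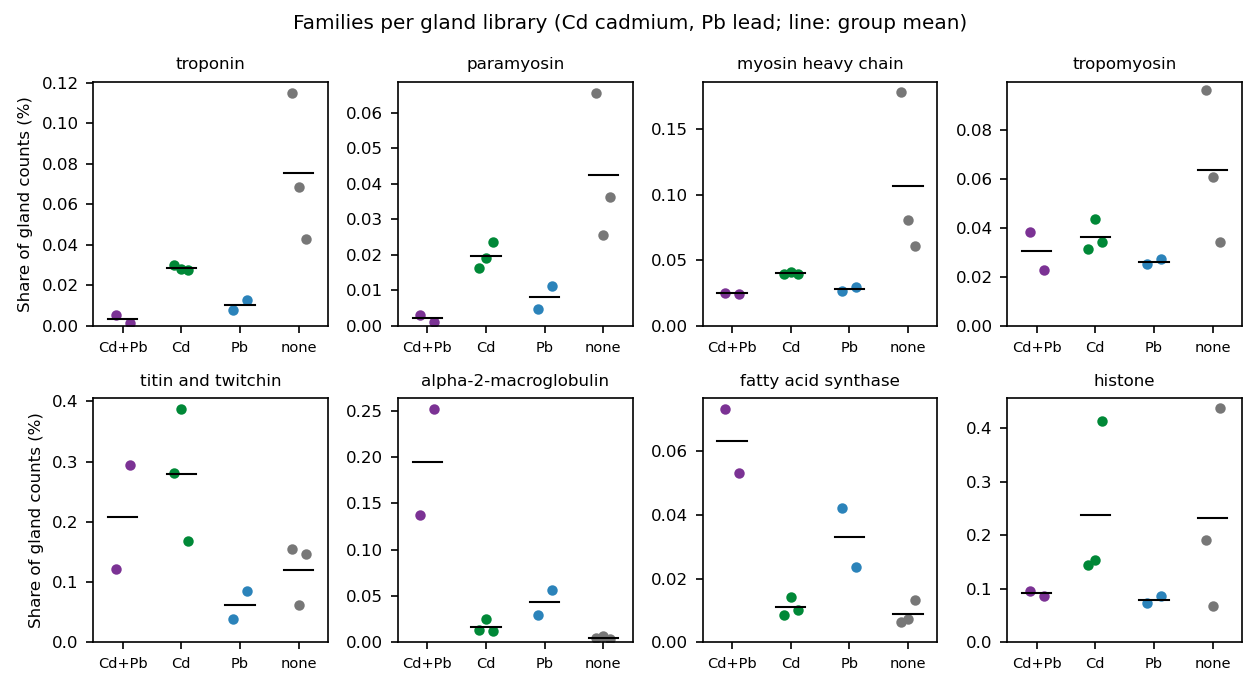
Share of gland counts (percent) in 8 gene families, one point per library with a line at the group mean, ordered as both metals (Cd+Pb), cadmium (Cd), lead (Pb) and untreated (none). Troponin shares were 0.00541 and 0.00120% with both metals against 0.0300, 0.0279 and 0.0274% with cadmium, and fatty acid synthase shares 0.0732 and 0.0531% with both metals against 0.00852, 0.0142 and 0.0101% with cadmium.

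Genes of nerve signalling had 48 of 147 clusters lower and 28 higher without overlap (median -0.42). The median was -1.05 without replicate 1 of both metals and -0.11 with a filter of 1 CPM in 2 libraries. The genes given next were chosen by p and were all lower, although the list also held higher clusters. The list's summed share was 0.191 and 0.208% with both metals, against 0.178, 0.200 and 0.157% with cadmium, and these ranges overlapped. The neuronal acetylcholine receptor subunit alpha-2, a channel of cholinergic synapses, had 0.611 and 0.262 CPM with both metals, against 11.5, 16.7 and 16.97 CPM with cadmium, a log2 change of -5.12 ± 0.94 (adjusted p = 0.164). Synaptotagmin-4, of the family of calcium sensors for vesicle release, had 1.45 and 0.436 CPM with both metals, against 14.9, 8.83 and 9.55 CPM with cadmium, a log2 change of -3.57 ± 0.74 (adjusted p = 0.213). Outside the list, the glycine receptor subunit alpha-2-like channel, which passes chloride, had 0.0764 and 0.174 CPM with both metals, against 28.3, 20.3 and 25.004 CPM with cadmium, a log2 change of -7.47 ± 1.20 (adjusted p = 0.141). Each of these 3 was lower in both glands with both metals than in any cadmium gland.

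Alpha-2-macroglobulins, the hemolymph proteins that trap proteases, were higher with both metals. Of 12 clusters tested 9 were higher without overlap and none lower (median 3.21), and DESeq2 called 9 higher. Alpha-2-macroglobulin had 123 and 105 CPM with both metals, against 9.62, 14.98 and 9.20 CPM with cadmium, a log2 change of 3.33 ± 0.47 (adjusted p = 0.132). Alpha-2-macroglobulin 2 had 161 and 174 CPM with both metals, against 3.65, 14.4 and 9.69 CPM with cadmium, a log2 change of 4.18 ± 0.64 (adjusted p = 0.136). The groups were apart in both. Lead glands held 16.7 and 34.9 CPM of the first and untreated glands 1.13, 1.52 and 1.03 CPM. The other hemolymph and hemocyte clusters had 1 higher and 11 lower of 57 without overlap (median -0.80), and their summed share was 0.161 and 0.110% with both metals, against 0.118, 0.0808 and 0.441% with cadmium, with overlap. For the whole list, alpha-2-macroglobulins included, the median was -0.49. Without cadmium replicate 3 it was 0.31, and without replicate 1 of both metals -1.76. Hemocyanin, the copper protein that carries oxygen in hemolymph, had no cluster separated among 10 tested.

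Fatty acid synthases, which build fatty acids, were mostly higher with both metals. The lipid list had 96 of 279 clusters higher and 27 lower without overlap, with a median of 0.44. Of 51 fatty acid synthase clusters tested, 35 were higher and 4 lower (median 2.44), and DESeq2 called 19 higher and 0 lower. Set against the cadmium mean, their median was 1.47 in replicate 1 and 1.89 in replicate 2. Without replicate 1 of both metals the lipid list's median was -0.23. A fatty acid synthase cluster had 85.4 and 29.3 CPM with both metals and no counts in the cadmium glands, at least 353-fold higher against a floor of 3 counts per library. A fatty acid synthase-like cluster had 9.47 and 5.28 CPM with both metals, against 0.0493, 0 and 0 CPM with cadmium, where the cadmium libraries held 1 count in all (ratio 389, 95% exact interval 69.2 to 15443). D-beta-hydroxybutyrate dehydrogenase, the mitochondrial enzyme that interconverts ketone bodies, had 18.1 and 11.2 CPM with both metals, against 0.0493, 0.178 and 0.137 CPM with cadmium, a log2 change of 6.83 ± 0.90 (adjusted p = 0.106). This cluster was separated, with 41.2 and 18.8 CPM in lead glands and 0, 0 and 0.0604 CPM in untreated glands. Of 10 hydroxybutyrate dehydrogenase clusters tested, 3 were higher and 1 lower without overlap (median 0.39). Their summed share was 0.0197 and 0.00857% with both metals, against 0.00826, 0.0111 and 0.00974% with cadmium, with overlap.

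Transporters had 74 of 233 clusters higher and 42 lower without overlap (median 0.46), and the median was -0.23 without replicate 1 of both metals and 0.86 without replicate 2. Monocarboxylate transporters, which carry lactate and ketone bodies in vertebrates, went in both directions. One cluster named monocarboxylate transporter 9 had 102 and 142 CPM with both metals, against 1.09, 6.60 and 1.99 CPM with cadmium, a log2 change of 5.24 ± 1.03 (adjusted p = 0.187). Another of the same name had 1.60 and 2.01 CPM with both metals, against 18.6, 12.6 and 20.2 CPM with cadmium, a log2 change of -3.24 ± 0.59 (adjusted p = 0.159). Both were separated.

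Few genes that bind or move metals were separated between the groups. In the metal handling list 13 of 72 clusters were higher and 8 lower without overlap (median 0.06), which lies near the background for higher values and below it for lower ones. Without replicate 1 of both metals the median was -0.71. DESeq2 called none of the 65 with an adjusted p. The 2 metallothionein clusters, small metal-binding proteins, had a median log2 change of -0.14, and their summed share was 0.000881 and 0.000705% with both metals, against 0.000603, 0.00106 and 0.000533% with cadmium. Multidrug resistance-associated protein clusters had 4 higher and 5 lower of 25 without overlap (median -0.11). Their summed share was 0.0310 and 0.0371% with both metals, against 0.0205, 0.0251 and 0.0210% with cadmium. Among the higher clusters, multidrug resistance-associated protein 1, an exporter of glutathione conjugates, had 25.4 and 35.4 CPM with both metals, against 4.19, 4.86 and 5.77 CPM with cadmium, a log2 change of 2.62 ± 0.80 (adjusted p = 0.365). The high affinity copper uptake protein 1-like cluster had 38.3 and 37.4 CPM with both metals, against 13.3, 16.05 and 11.3 CPM with cadmium, a log2 change of 1.48 ± 0.49 (adjusted p = 0.387). Both were separated. Soma ferritin, an iron store, had 2579 and 705 CPM with both metals, against 970.3, 1259 and 1358 CPM with cadmium, with overlap.

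Detoxification genes were mixed as well. Glutathione clusters had 9 higher and 2 lower of 53 (median 0.25), and antioxidant clusters 3 and 4 of 34 (median -0.28). Without replicate 1 of both metals the medians were -0.88 for glutathione, -1.02 for antioxidant and -2.01 for cytochrome P450 clusters. Glutathione S-transferase Mu 1, which conjugates glutathione to foreign compounds, had 10.2 and 23.9 CPM with both metals, against 3.75, 3.52 and 2.40 CPM with cadmium, a log2 change of 2.40 ± 0.75 (adjusted p = 0.372). Cytochromes P450 had 40 of 208 lower and 20 higher (median -0.32). Cytochrome P450 4c3 was among the higher ones, with 12.1 and 17.6 CPM with both metals, against 0.296, 1.34 and 1.92 CPM with cadmium, a log2 change of 3.64 ± 1.02 (adjusted p = 0.334). Epoxide hydrolase 1, which opens reactive epoxides, had 43.997 and 61.4 CPM with both metals, against 4.09, 3.66 and 3.30 CPM with cadmium, a log2 change of 3.84 ± 1.18 (adjusted p = 0.373). The conjugation list had 12 higher and 6 lower of 61 (median 0.01, and -1.14 without replicate 1 of both metals). Its sulfotransferase clusters had 9 higher and 6 lower of 53 (median -0.13). Among the higher ones, sulfotransferase 1C4, of the enzymes that add sulfate to small molecules, had 99.1 and 50.05 CPM with both metals, against 0.641, 2.76 and 1.65 CPM with cadmium, a log2 change of 5.46 ± 0.91 (adjusted p = 0.148). These 4 were separated. Heat shock clusters had 16 higher and 25 lower of 87 (median -0.28), and proteasome clusters 1 and 10 of 47 (median -0.44). Without replicate 1 of both metals these medians were -0.90 and -1.07.

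Ribosomal and respiratory genes were lower in replicate 2 of both metals more than in replicate 1. Ribosomal protein clusters had none higher and 31 lower of 108 without overlap (median -0.66), with medians of 0.02 in replicate 1 and -1.98 in replicate 2. Their share of counts was 3.67 and 1.35% with both metals, against 5.09, 4.54 and 3.66% with cadmium. Respiratory chain clusters held 1.25 and 0.839% with both metals, against 2.34, 2.12 and 2.48% with cadmium, separated in level, and 29 of 87 clusters were lower and 4 higher (median -0.71). Without replicate 1 of both metals the medians were -2.22 for ribosomal and -1.82 for respiratory clusters. The putative 60s ribosomal protein L44 had 5.19 and 2.53 CPM with both metals, against 28.02, 24.6 and 43.4 CPM with cadmium, a log2 change of -3.05 ± 0.58 (adjusted p = 0.172). Both glands with both metals were below every cadmium gland. Cytochrome c oxidase subunit II, encoded in the mitochondrial genome, had 3446 and 1445 CPM with both metals, against 7085, 7353 and 11651 CPM with cadmium, a log2 change of -1.83 ± 0.57 (adjusted p = 0.372). Pyruvate kinase, the last enzyme of glycolysis, had 87.1 and 21.7 CPM with both metals, against 242, 250.2 and 411 CPM with cadmium, a log2 change of -2.47 ± 0.70 (adjusted p = 0.340). Both were separated.

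DNA replication and cuticle clusters were more often lower than higher. DNA replication clusters had 32 of 69 lower and 3 higher without overlap (median -1.11). The catalytic subunit of DNA polymerase alpha, which starts new strands, had 0.382 and 0.0436 CPM with both metals, against 2.17, 2.27 and 4.33 CPM with cadmium, a log2 change of -3.82 ± 1.20 (adjusted p = 0.372). Histone clusters, the packaging proteins of DNA, are part of the DNA replication list and had 15 of 30 lower (median -1.77). Chitin and cuticle clusters had 31 of 89 lower and 8 higher (median -1.05), with medians of -3.99 without replicate 1 of both metals, -0.31 without replicate 2 and -0.47 without cadmium replicate 3. Cuticle protein 14 had 0.153 and 0 CPM with both metals, against 53.8, 41.9 and 48.98 CPM with cadmium, where the libraries with both metals held 2 counts in all, and the level with cadmium was 863 times that with both metals (95% exact interval 239 to 7129). Chitinase-like protein 3, of a family of chitin-binding proteins, went the other way, with 118 and 53.4 CPM with both metals, against 8.09, 9.32 and 10.4 CPM with cadmium, a log2 change of 3.21 ± 0.71 (adjusted p = 0.245). Cadmium replicate 3 stood apart in part of this list: chitin deacetylase 1, which trims chitin, had 666 and 40.8 CPM with both metals, against 1526, 3288 and 10731 CPM with cadmium. Of the other tissue markers, the reproductive list had 41 lower and 17 higher of 118 (summed share 0.0425 and 0.0702% with both metals against 0.0712, 0.0584 and 0.111% with cadmium), the digestive list 23 and 14 of 133 (0.286 and 0.150% with both metals against 0.196, 0.222 and 0.266% with cadmium), and the venom list 17 and 3 of 105 (0.391 and 0.0740% with both metals against 0.369, 0.427 and 0.644% with cadmium). Their part in the results was not tested.

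Further named genes had among the smallest p-values without belonging to a list above. Unconventional myosin-Ie, a single-headed motor that works at membranes, had 71.8 and 118 CPM with both metals, against 13.3, 16.2 and 14.6 CPM with cadmium, a log2 change of 2.69 ± 0.42 (adjusted p = 0.136). Glutaminyl-peptide cyclotransferase, which closes the N-terminal glutamine of peptides into a ring, had 124 and 131 CPM with both metals, against 12.1, 16.98 and 18.5 CPM with cadmium, a log2 change of 3.01 ± 0.51 (adjusted p = 0.148). Arylsulfatase B, a lysosomal sulfatase, had 0.993 and 1.05 CPM with both metals, against 24.4, 12.3 and 14.9 CPM with cadmium, a log2 change of -4.06 ± 0.67 (adjusted p = 0.148). The aryl hydrocarbon receptor, a transcription factor that senses planar pollutants in vertebrates, had no counts with both metals and 3.75, 3.52 and 3.16 CPM with cadmium, at least 19.3-fold lower. The probable G-protein coupled receptor 83 had no counts with both metals and 29.004, 6.06 and 4.26 CPM with cadmium, at least 72.8-fold lower. These bounds use a floor of 3 counts per library and cover counting error only.

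**Figure D4:**
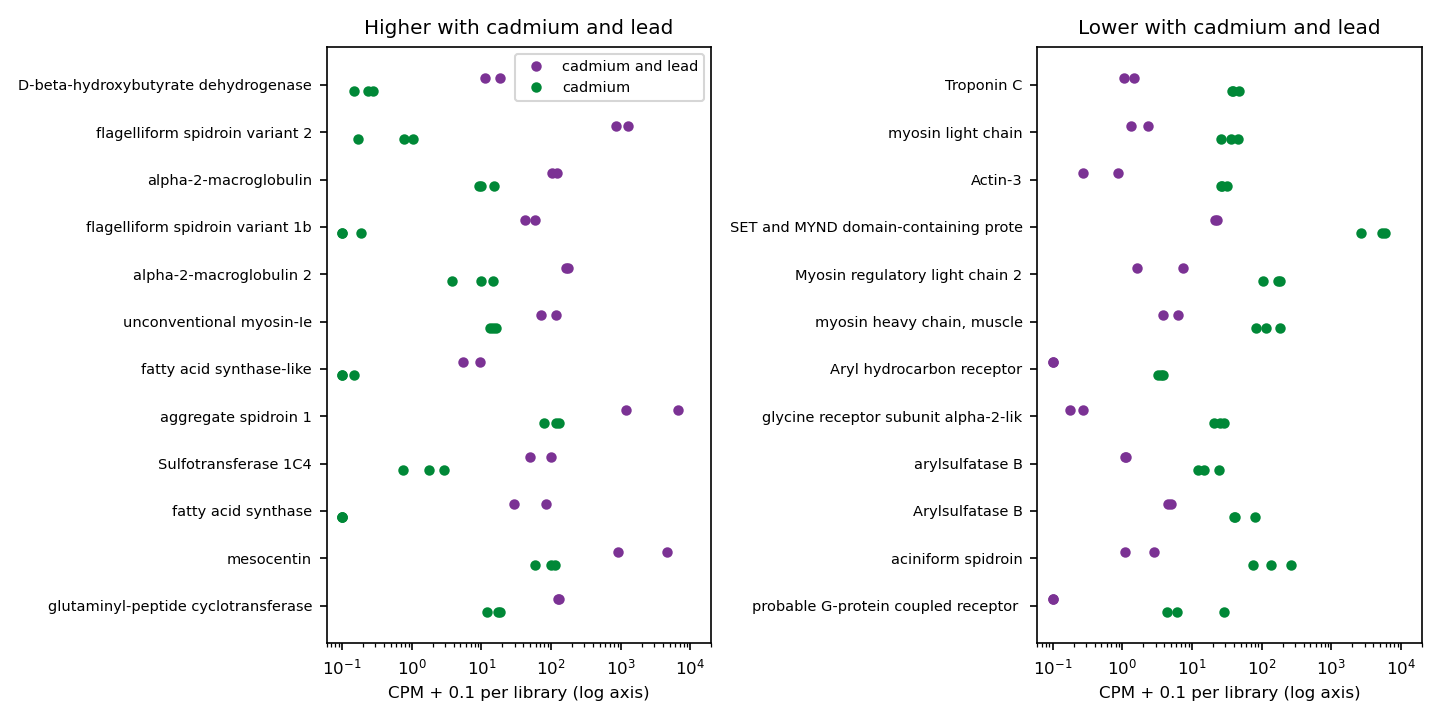
TMM-scaled CPM plus 0.1 (log axis) of the 12 named genes with the smallest p-values in each direction, one point per library. Troponin C had 1.37 and 0.959 CPM with both metals against 37.9, 38.1 and 46.5 CPM with cadmium, and aggregate spidroin 1 had 1206 and 6585 CPM with both metals against 78.5, 129.9 and 119 CPM with cadmium.

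The same contrast was measured in the cerebral ganglia, with 2 libraries of both metals and 3 of cadmium. There edgeR called 351 of 38659 clusters. The test of the difference between gland and ganglia called none of 51904 clusters (0.0%), with a smallest adjusted p of 0.0838 and 4567 at an unadjusted p under 0.05, and DESeq2 was not run on this difference. Troponin C had a ganglia log2 change of -0.36 ± 0.50, against the gland's -5.13 ± 0.61, with an adjusted p of the difference of 0.0838. Alpha-2-macroglobulin had 7.39 ± 1.69 in the ganglia, against 3.33 ± 0.47 in the gland (adjusted p of the difference = 0.542). The ganglia value rests on low counts. Without TMM factors the ganglia levels of this cluster were 2.16 and 8.63 CPM with both metals, against 0.0549, 0 and 0 CPM with cadmium. Of the silk lists, aggregate spidroins had a median of 4.75 over 12 ganglia clusters, against 3.54 in the gland, and flagelliform spidroins -2.19 over 6, against 4.61. These list medians were not tested between the tissues. The ganglia share of flagelliform clusters was 0.0183 and 0.0186% with both metals, against 0.00522, 0.0156 and 0.257% with cadmium. Only cadmium replicate 3 lay above the ganglia with both metals. Muscle clusters had a median of -0.36 over 109 ganglia clusters, against -1.26 in the gland. Aciniform clusters held 0.0329 and 0.0819% of ganglia counts with both metals and 0.00492, 0.00321 and 0.000859% with cadmium.

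**Figure D5:**
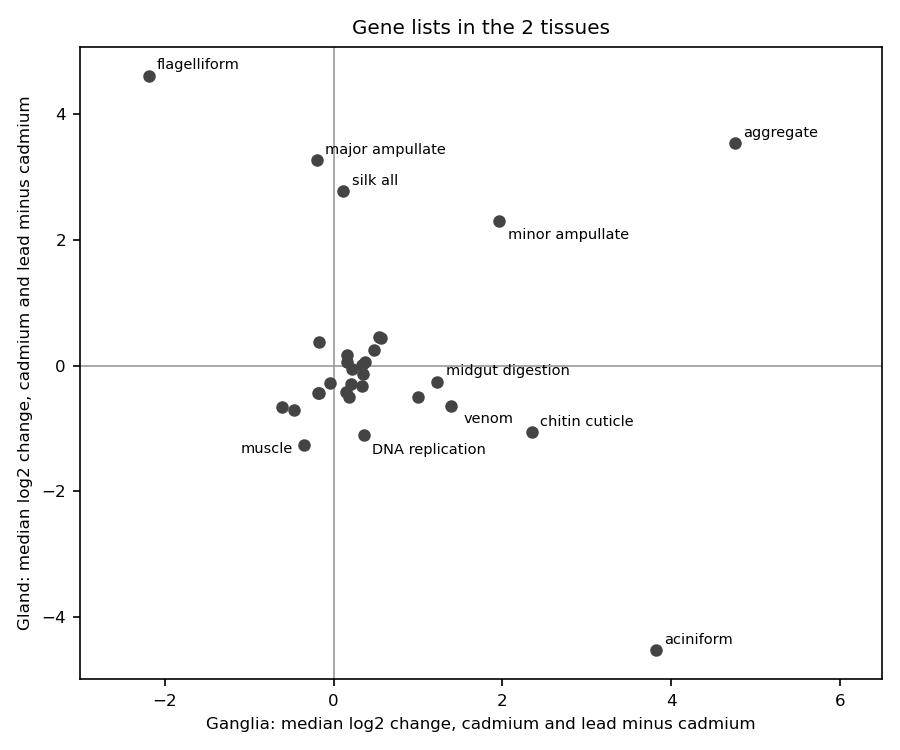
Median log2 change of both metals over cadmium for each gene list, in the gland on the vertical axis and in the ganglia on the horizontal axis, one point per list. Aciniform spidroins had a gland value of -4.53 and a ganglia value of 3.82, while aggregate spidroins had 3.54 and 4.75.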

How the data were processed

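The authors deposited an estimated count (expected count) of reads per assembled cluster, not normalised, and a second table of FPKM, a unit read here from the values, since they follow the deposited counts scaled by cluster length and library total. FPKM values were used only to infer fragment length. Per the labels' protocols, RNeasy Mini Plus was used for RNA and a SMARTER mRNA-Seq kit for libraries. Which assembler, aligner and counter were run, and whether strand was used, is not given in the sources used. Of 24 columns 4 repeated another exactly and were left out.

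Counts were rounded and fitted with edgeR 4.0.16 (filterByExpr, TMM, robust glmQLFit, glmQLFTest) in R 4.3.3, with one mean for each of the 4 gland groups, which takes groups of 2 to be as variable as those of 3. Calls were made at a Benjamini-Hochberg adjusted p under 0.05. The SE is the log2 change divided by the root of the F statistic. DESeq2 1.42.0 was the second tool. Shares of counts were compared by exact permutation. Counting intervals are exact at 95% and cover counting error only. The script was tested on simulated data.

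Gene lists, silk types, families and the comparison were chosen with earlier results of these data known. The named genes are the 12 with the smallest p in each direction among informatively described, separated clusters with a mean of at least 1 CPM, plus members of each list by p or by level. A selection of them is described, and 7 clusters were added after their values had been seen. Alternatives were RLE and TMMwsp scaling, other filters, the replicate block, the 5 libraries alone, all 12 gland columns, silk clusters left out, the trend along cluster length removed, a 2-fold minimum and leaving out each library. A silk type by any nucleotide match was added after seeing the data.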

Additional observations from a re-analysis of the deposited data

Results flagged for a closer look

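In 5 gene lists every library with both metals lay on one side of all cadmium libraries in the gland and on the other side in the ganglia. None of these differences between the tissues was tested. The values are mean shares of counts with both metals minus those with cadmium, in percentage points. Aciniform spidroins, of wrapping silk, stood at -8.598 in the gland and 0.05439 in the ganglia. Pyriform spidroins, of attachment silk, stood at -1.691 and 0.05101, gland before ganglia. Chitin and cuticle genes stood at -0.5138 in the gland and 0.7068 in the ganglia. The gland value was -0.309 without cadmium replicate 3. The ganglia shares were 0.207 and 1.51% with both metals, against 0.160, 0.172 and 0.119% with cadmium, so 1 library held most of that excess. Cytochromes P450 stood at -0.2474 in the gland and 0.184 in the ganglia. Without cadmium replicate 3 the gland value of this list was -0.131. The DNA replication list, histones included, stood at -0.173 in the gland and 0.08197 in the ganglia. The gland value became -0.0729 without cadmium replicate 3, which held 0.499% against 0.199 and 0.198% in the other cadmium glands. Histones alone stood at -0.146 in the gland, and so made up most of the list's value. In the ganglia their mean share was 0.156% with both metals and 0.0895% with cadmium.

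Sequence of other organisms also differed. Clusters that match Sphingobium, a bacterium, summed to 6.61 and 149.6 CPM in the glands with both metals, a mean of 78.1, and had no counts in the 3 cadmium glands. Lead glands held 83.4 and 6.36 CPM of it, and untreated glands 0.270, 0 and 0 CPM. In the ganglia it stood at 4.38 and 1.61 CPM with both metals and 4.31 and 2.64 CPM with lead. Cadmium ganglia held 0, 0 and 0.0618 CPM, and untreated ganglia none. Clusters that match Rattus summed to 5.26 and 1.19 CPM with both metals, a mean of 3.229, against 0.524, 0.509 and 0.171 CPM with cadmium. Lead glands held 1.59 and 5.57 CPM of Rattus, and untreated glands 0, 0.347 and 0.470 CPM. Both kinds of sequence were thus also higher in lead glands than in untreated glands.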

How the results depend on the processing

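The count of 0 clusters called in the gland stayed 0 with RLE or TMMwsp scaling, a filter of 1 CPM in 2 libraries, the 5 libraries alone, silk clusters or the trend along cluster length taken out, and a 2-fold minimum. It became 1528 of 131114 tested without a filter, 498 when all 12 gland columns were counted as libraries and 1857 with DESeq2. With one library left out it ran from 0 to 64, with 41 without replicate 1 of both metals, 59 without lead replicate 1 and 64 without lead replicate 2. The difference from the ganglia was called for 0 to 562 clusters, with 562 without gland replicate 1 of both metals, and 9 and 4 without ganglia replicates 1 and 2 of both metals. The cause was not tested. Without the length trend the median of all clusters became 0.10, against -0.12, and TMMwsp or RLE scaling moved it by less than 0.1.

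Whether the replicate numbers pair the samples could not be told from the counts. Same-numbered libraries of the 2 groups had correlations of -0.17 and 0.06 in their deviations from the group means. With 2 libraries of both metals those deviations mirror each other, so the correlations cannot decide it. With the replicate block 0 clusters were called in either result, and the median became 3.94 for silk and 4.13 for minor ampullate spidroins, against 2.78 and 2.31.

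Differences in mean share of counts, both metals minus cadmium in percentage points, ran with one library left out from 4.33 to 5.87 for major ampullate clusters, 0.562 to 1.35 for minor ampullate, 0.908 to 7.59 for aggregate, 0.353 to 0.764 for flagelliform, -0.0228 to 5.54 for all silk, -3.08 to -0.754 for ribosomal, 0.0451 to 0.254 for glycosylation, -0.0562 to 0.0897 for metal handling, -0.0234 to 0.00925 for glutathione and -0.0775 to 0.0582 for digestive ones. With silk taken out of the total they were 6.109 for major ampullate, -9.909 for aciniform and 0.05529 for conjugation clusters, and with any nucleotide match 8.855 for major ampullate and 0.9426 for flagelliform ones. Of 685 recomputed list medians 37 moved beyond the spread between replicates, and 25 of the 37 came without replicate 1 of both metals. Of the 63 clusters named, 53 were called by DESeq2, 45 without a filter and 42 with all columns, and none by the analysis reported. These clusters were chosen from the same counts by p, by level or after their values were seen. Their calls are therefore no independent support. Over all clusters tested the calls were 1857 of 35170, 1528 of 131114 and 498 of 39373, in the same order. Among the overlapping ones, dragline silk protein-2 (F2) reversed to a log2 change of 1.215 under the replicate block. It also reversed to 0.1938 without the length trend and 0.6248 without cadmium replicate 3. It ran from -0.6935 to 0.6248 with one library left out. Actin-5C reversed to 0.03735 without the length trend, 0.07815 without cadmium replicate 3 and 0.3739 without replicate 2 of both metals, with a range of -1.579 to 0.3739 with one library left out, and Soma ferritin to -0.8182 without replicate 1 of both metals and otherwise reached 1.12.

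Clusters near 3 counts per library cannot be resolved at this depth.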

Other observations

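Abundant clusters without a protein name also separated the groups. Of 30 unnamed clusters averaging at least 1000 CPM, 15 were higher with both metals without overlap and 11 lower, and those given here were picked after their values had been seen. A cluster of 610 bases with no database match had 17.8 and 6.54 CPM with both metals, against 7939, 4490.3 and 5402 CPM with cadmium, a log2 change of -8.93 ± 1.07 (edgeR adjusted p = 0.0684). It had 235 and 1332 CPM in lead glands and 8595, 8948 and 7400.1 CPM in untreated glands. Another with no match had 9.32 and 6.54 CPM with both metals, against 6208, 4034 and 4345 CPM with cadmium, a log2 change of -9.26 ± 1.11 (edgeR adjusted p = 0.0684). A cluster that matches a hypothetical protein of the velvet spider Stegodyphus mimosarum had 62.6 and 33.9 CPM with both metals, against 13338, 7836 and 8002 CPM with cadmium. A second hypothetical protein of that spider went the other way, with 1695 and 4337 CPM with both metals, against 0.0493, 8.65 and 1.79 CPM with cadmium. The groups did not overlap in any of the 4.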
